A study of Macaca mulatta with 64 samples.

Results

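The occipital cortex (OC) of rhesus macaques was compared between animals of 10 and 20 yr and animals of 1 and 4 yr by CAGE-seq, which counts sequence tags at the 5′ ends of capped, polyadenylated RNA and so marks where transcripts start. The older group, called 10-20 yr here, held 4 libraries, 1 each from females and males of 10 yr (10F and 10M) and of 20 yr (20F and 20M). The younger group, called 1-4 yr, held 4 libraries from females and males of 1 yr (1F and 1M) and of 4 yr (4F and 4M). No animal had a treatment or a genetic change in the labels, each region, age and sex has a single library, and the labels name no animal, so the spread used below is that between libraries of different ages and sexes within a group. The methods state for RNA-seq of the same samples that a library was made from an age- and sex-matched pair, and whether a CAGE-seq library holds 1 animal or such a pair is not stated. The study's methods place the OC sample in the primary visual cortex. A gene entered the comparison if the TPM (tags scaled to a common library total, with no correction for length, summed over its start positions) was at least 1 in 4 or more of these 8 libraries. This held for 2325 genes, 1731 of them with a symbol, of 6866 genes listed in any OC library and 13269 genes listed in any of the 64 libraries of the series. The 6866 genes came from 25529 of the 160389 start positions of the series.

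The primary visual cortex receives the input of the eyes through the thalamus. Its circuits mature in infancy and youth, when synapses are pruned and axons gain myelin, and in old age cortical tissue is known for changes in glia, myelin and mitochondria. CAGE tags at the annotated start of a gene mark its promoter, while tags inside a gene can come from other promoters or from RNA that was cut and capped again or escaped the cap selection. A value of 0 means only that no start position of the gene was listed in that library, because the deposited values hold no position under 3 or 4 tags. Genes that cells use throughout the body, such as EIF4A2, were also listed at 0 in some libraries.

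The OC libraries held 2705000 to 3265000 tags, as read from the steps between low values. The 10-20 yr libraries listed 2275 genes (10F), 2703 (10M), 2720 (20F) and 4030 (20M), against 1920 (1F), 2246 (1M), 2501 (4F) and 2936 (4M) in the 1-4 yr libraries. The groups overlapped, and library 20M stood apart with the most genes. The mean was 2932 ± 760 genes in 10-20 yr and 2401 ± 429 genes in 1-4 yr (SD, n = 4 each), a difference of 531 genes (exact permutation test, two-sided, p = 0.286, adjusted p = 0.286 over 6 measures). Without 20M the difference was 165 genes. Start positions numbered 3617, 4466, 4594 and 7727 in libraries 10F, 10M, 20F and 20M, against 2947, 3527, 4004 and 4802 in 1F, 1M, 4F and 4M. Their means differed by 1281 (p = 0.257, exact), and by 406 without 20M. The share of listed genes with more than 1 position was 35.4 ± 4.52% in 10-20 yr and 31.8 ± 2.33% in 1-4 yr (SD, n = 4 each, exact p = 0.200), a difference of 3.58 percentage points that was 1.60 without 20M. Tags within 500 nt of the annotated start made up 50.5 ± 2.33% of the listed TPM in 10-20 yr and 54.3 ± 2.93% in 1-4 yr (SD, n = 4 each, exact p = 0.0571, adjusted p = 0.257). Listed positions held 53.2 ± 2.56% of all tags in 10-20 yr and 57.1 ± 2.03% in 1-4 yr (SD, n = 4 each, exact p = 0.0857). None of the measures passed the threshold, and 4 against 4 libraries cannot give an exact p below 0.0286. Adjusted over 6 measures, a single measure at that floor could not pass either.

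**Figure D1:**
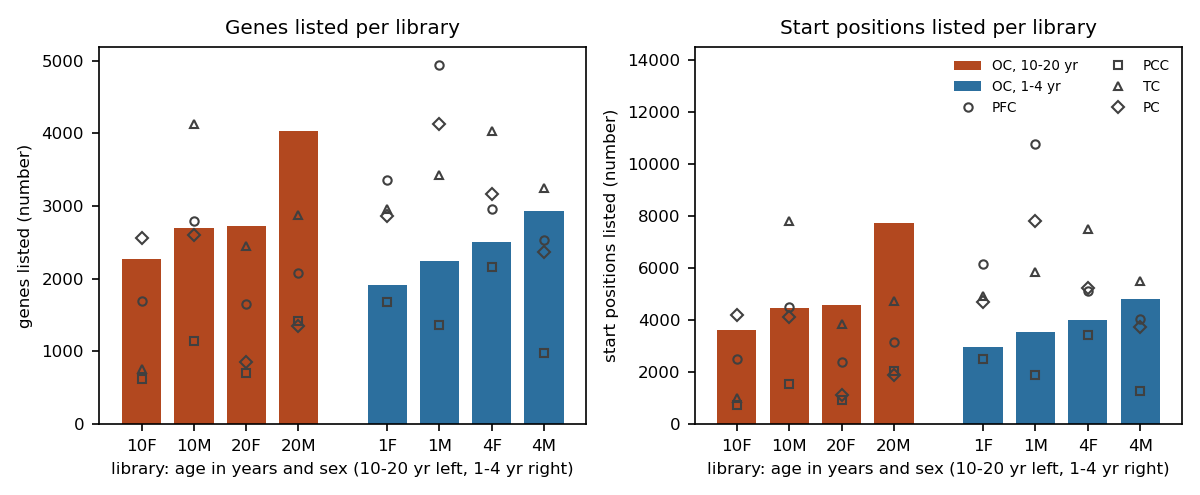
Genes (left) and start positions (right) listed in each library, as numbers on the vertical axes, by age in years and sex. Bars are the OC libraries and open symbols the PFC, PCC, TC and PC libraries of the same age and sex; OC library 20M lists 4030 genes, the most of the 8 OC libraries.

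Across the 2325 genes no age difference passed the test. With limma on log2(TPM + 1), 0 genes (0.0%) had a Benjamini-Hochberg adjusted p under 0.05, and the smallest was 0.0715, for TALDO1. At an unadjusted p under 0.05 there were 111 genes higher in 10-20 yr (4.77%) and 38 lower (1.63%). Without 20M these counts were 83 and 54. Quantile normalization gave 74 higher and 67 lower. The median log2 difference of all genes was 0.32, and 0.07 after quantile normalization. It was 0.19 without 20M, 0.19 without 1F and 0.48 without 10F, and members are read below against 0.32. Limma voom on the recovered tags called 3 genes higher (TALDO1, SEC62 and CLIC1) and 1 lower (EIF4A2). Each of these 4 had passed the filter through the group where it is high alone, so that it had to differ. Every 10-20 yr library lay above every 1-4 yr library in 49 genes (2.11%), and below every one in 26 genes (1.12%). Of these, 18 genes listed at 0 in all 1-4 yr libraries and 2 listed at 0 in all 10-20 yr libraries had entered the comparison through 1 group alone, so their groups could not overlap. Without 20M, 3 against 4 libraries did not overlap in 82 genes above (3.53%) and 51 below (2.19%). This is a looser criterion than 4 against 4, so the larger counts do not show a clearer difference.

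The 10 higher genes named here had the smallest p among genes with a symbol and no overlap between the groups, and each was listed in all 4 older libraries and in at most 1 younger one, so that all had passed the filter through the older group alone. The 1st was TALDO1 (ENSMMUG00000007510, chromosome 14, 562935 to 572233, plus strand, MMUL 1.0), which encodes transaldolase of the pentose phosphate pathway. Its summed TPM was 95.7, 149, 125 and 97.5 in 10F, 10M, 20F and 20M, and it was listed at 0 in 1F, 1M, 4F and 4M. The log2 difference was 6.86 (SE 0.95, limma adjusted p = 0.0715) and 8.85 with a pseudocount of 0.25 TPM, since a difference from 0 depends on the pseudocount. SEC62 (chromosome 2, 117019629 to 117048294, minus strand), a part of the machinery that moves proteins into the endoplasmic reticulum, had 432, 182, 334 and 102 TPM in 10F, 10M, 20F and 20M, against 0, 0, 4.12 and 0 TPM in 1F, 1M, 4F and 4M. Every 10-20 yr library thus lay above 100 TPM and every 1-4 yr library below 5 TPM (log2 difference 7.25, SE 1.11, limma adjusted p = 0.0832). CLIC1 (chromosome 4, 31376188 to 31383201, minus strand), a chloride intracellular channel protein, had 25.9, 218, 25.9 and 82.2 TPM in 10F, 10M, 20F and 20M and was listed at 0 in all 4 libraries of 1-4 yr (5.91, SE 1.10, limma adjusted p = 0.156). CDK16 (chromosome X, 45056083 to 45060696, plus strand), a kinase of the cyclin-dependent family, had 56.5, 179, 157 and 190 TPM in 10-20 yr, against 0, 10.2, 0 and 0 TPM in 1-4 yr (6.18, SE 1.20, limma adjusted p = 0.156).

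NDUFB8, an accessory subunit of complex I of the respiratory chain, had 232, 630, 433 and 90.5 TPM in 10F, 10M, 20F and 20M, against 44.7 TPM in 4M and 0 in the other 1-4 yr libraries (log2 difference 6.73, SE 1.51). TMEM134 had 105, 244, 227 and 15.3 TPM in 10-20 yr, against 5.83 TPM in 4M and 0 in 1F, 1M and 4F. DPF2, a subunit of BAF chromatin remodelling complexes, had 44.0, 81.2, 93.1 and 7.03 TPM in 10-20 yr and was listed at 0 in every 1-4 yr library. These 3 genes were lowest in 20M of the older libraries, the library that listed the most genes. GAS8, a component of the motile cilium, had 181, 25.6, 36.9 and 28.5 TPM, JTB 29.6, 10.4, 124 and 29.4 TPM, and FAM78A 204, 13.5, 17.2 and 27.5 TPM in 10F, 10M, 20F and 20M. GAS8, JTB and FAM78A were listed at 0 in 1F, 1M, 4F and 4M, and each had 1 older library several times above the rest. The adjusted p of the 10 genes was 0.0715 to 0.207. Set against 1-4 yr on the log2 scale, TALDO1 differed by 6.91 at 10 yr and 6.80 at 20 yr, and CDK16 by 5.80 at 10 yr and 6.57 at 20 yr. That both ages lay above the younger libraries was fixed by choosing genes with no overlap.

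**Figure D2:**
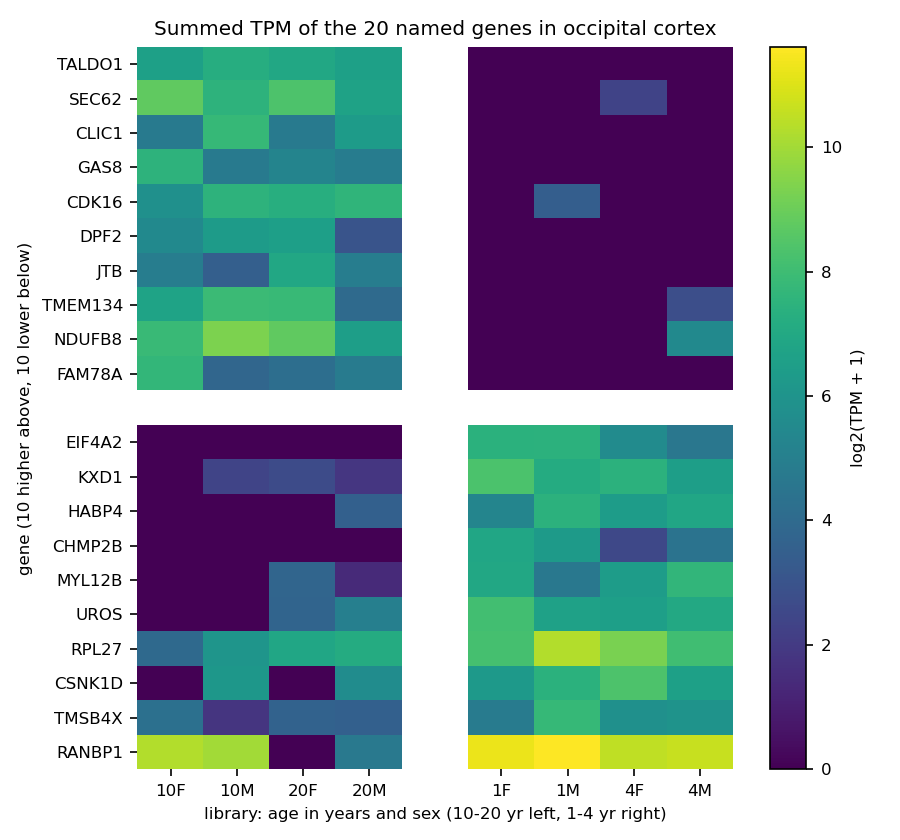
Summed TPM of the 20 named genes (rows, 10 higher above and 10 lower below) in the 8 OC libraries (columns, 10-20 yr left and 1-4 yr right), coloured by log2(TPM + 1). Darkest cells are genes listed at 0; TALDO1 is at 0 in all 1-4 yr libraries and EIF4A2 at 0 in all 10-20 yr libraries.

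Of the 10 lower genes, EIF4A2 (chromosome 2, 179141092 to 179147432, plus strand), an RNA helicase of translation initiation, was listed at 0 in all 4 libraries of 10-20 yr and had 168, 177, 47.8 and 23.3 TPM in 1F, 1M, 4F and 4M (log2 difference -6.27, SE 1.09, limma adjusted p = 0.152). CHMP2B, a subunit of the membrane-cutting ESCRT-III complex, was likewise at 0 in 10-20 yr and had 116, 78.4, 4.76 and 20.2 TPM in 1-4 yr. KXD1 (chromosome 19, 18180970 to 18184376, plus strand), a subunit of the BORC complex that positions lysosomes, had 0, 4.14, 5.31 and 2.56 TPM in 10F, 10M, 20F and 20M, against 316, 139, 174 and 89.4 TPM in 1F, 1M, 4F and 4M (-5.63, SE 1.09, limma adjusted p = 0.156). Its lowest younger library was thus more than 10 times its highest older one. HABP4 had 10.9 TPM in 20M and 0 in the other 10-20 yr libraries, against 38.0, 174, 84.0 and 117 TPM in 1-4 yr. MYL12B, a regulatory light chain of myosin, had 0, 0, 12.8 and 1.60 TPM in 10-20 yr and 124, 23.9, 84.9 and 201 TPM in 1-4 yr. UROS, an enzyme of haem synthesis, had 0, 0, 12.5 and 31.0 TPM in 10-20 yr and 276, 99.2, 94.1 and 129 TPM in 1-4 yr. In HABP4, MYL12B and UROS the 10-yr-old libraries were at 0, so the difference from 1-4 yr was larger at 10 yr (for UROS -7.09) than at 20 yr (-2.71) on the log2 scale.

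RPL27, a protein of the large ribosomal subunit, had 14.8, 65.3, 116 and 140 TPM in 10F, 10M, 20F and 20M, against 290, 1223, 614 and 266 TPM in 1F, 1M, 4F and 4M (log2 difference -2.93, SE 1.16). TMSB4X, which encodes the actin-binding thymosin beta 4, had 18.5, 2.42, 11.6 and 10.9 TPM in 10-20 yr and 27.6, 216, 55.1 and 62.2 TPM in 1-4 yr. CSNK1D, casein kinase 1 delta, had 0, 70.8, 0 and 48.9 TPM in 10-20 yr and 74.1, 169, 331 and 96.5 TPM in 1-4 yr. In CSNK1D the 2 older zeros were those of the females. RANBP1, a regulator of transport between nucleus and cytoplasm, had 1242, 1016, 0 and 25.3 TPM in 10-20 yr and 2467, 3135, 1454 and 1583 TPM in 1-4 yr. Its 10-yr-old libraries lay within 1.5-fold of the lowest younger library, and the 20-yr-old ones far below (log2 difference from 1-4 yr -0.87 at 10 yr and -8.65 at 20 yr). The adjusted p of the 10 lower genes was 0.152 to 0.779.

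Where the tags of these genes lay differed from gene to gene. In CDK16, 10M, 20F and 20M had 179, 157 and 151 TPM between 58 and 60 nt inside the annotated start, a place listed in 16 of the 64 libraries of the series, while 10F had 22.2 TPM between 1593 and 1599 nt and 34.4 TPM at 3018 nt. CLIC1 had tags 205 to 222 nt before the start in all 4 older libraries (25.9, 62.9, 20.9 and 10.9 TPM in 10F, 10M, 20F and 20M), and 148 and 48.9 TPM at 182 nt before it in 10M and 20M. KXD1 had 312 TPM between 20 and 32 nt before the start in 1F, and 139, 174 and 89.4 TPM at 70 nt inside in 1M, 4F and 4M. CHMP2B had all its tags between 43 and 52 nt inside, in each of the 4 younger libraries. CDK16, CLIC1, KXD1 and CHMP2B therefore carried most of their difference near the annotated start.

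TALDO1, SEC62 and EIF4A2 carried theirs inside the gene, at places that changed from library to library. TALDO1 had 149 TPM at 4618 nt in 10M, 99.0 TPM at 8226 nt in 20F, 62.7 TPM at 8684 nt in 20M, and 95.7 TPM between 8718 and 8723 nt in 10F. None of its TPM lay within 500 nt of the start. SEC62 had 432 TPM at 10701 nt in 10F, 182 TPM at 10643 nt in 10M, 332 TPM at 9364 nt in 20F, and 82.5 TPM at 9341 nt in 20M, and each of these places was listed in 1 OC library only. EIF4A2 had 137 TPM at 3596 nt in 1F and 152 TPM at 5590 nt in 1M, with no place shared by any pair of OC libraries. The median share of a gene's TPM within 500 nt of the start was 45.4% over all genes, 26.0% in the 49 genes above and 91.2% in the 26 genes below, a description with no test. Whether these places are exonic was not looked up, since no annotation of this build was used here.

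**Figure D3:**
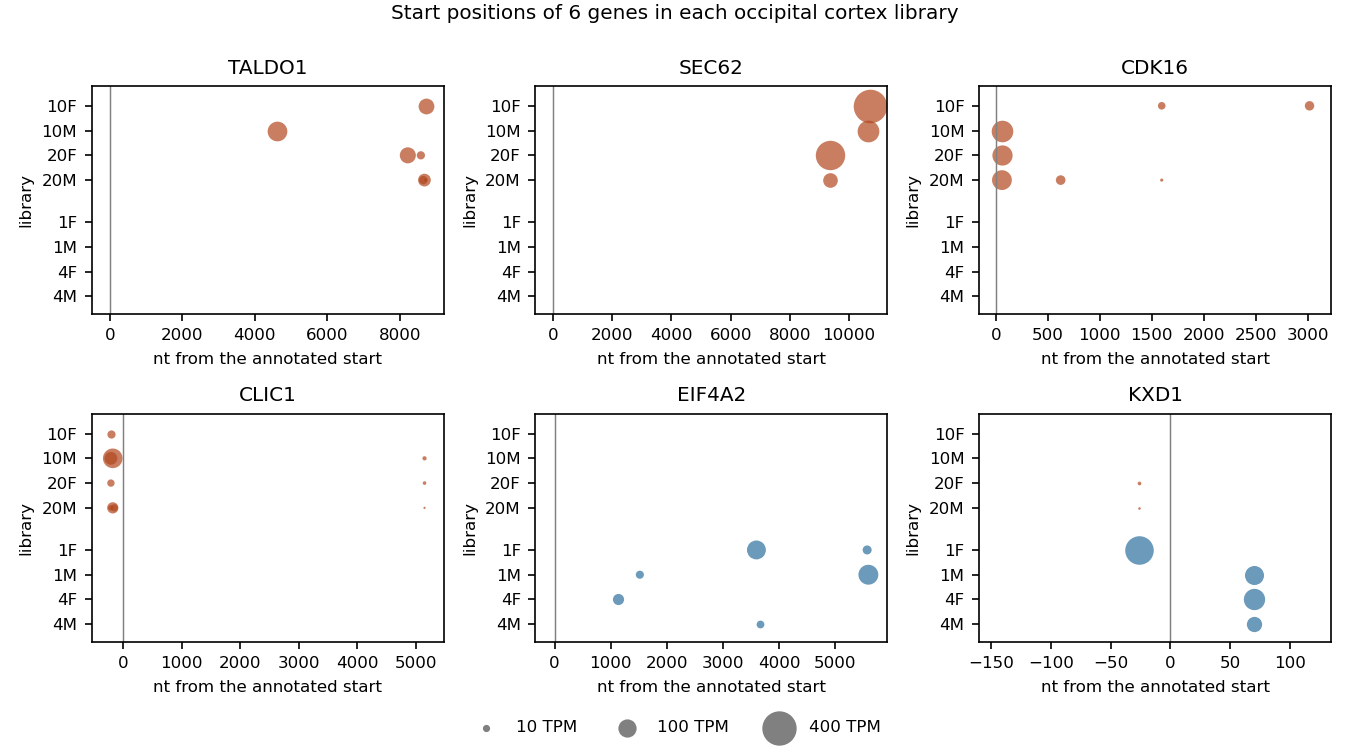
Start positions of 6 genes in the 8 OC libraries (rows, 10-20 yr above 1-4 yr), by distance from the annotated start in nt (horizontal axis), with circle area in proportion to TPM; positions with under 2% of a gene's TPM are left out. CDK16 and KXD1 have tags near the start, while the places in TALDO1, SEC62 and EIF4A2 differ between libraries.

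Single libraries decided many places. When positions of a gene under 20 nt apart were joined, 59.1% of the joined positions of the tested genes were listed in 1 OC library only and held 8.47% of the TPM, and 2.72% were listed in all 8 and held 44.9% of the TPM. Of 177 genes that reached 1000 TPM in at least 1 OC library, 27 (15.3%) were listed at 0 in another, with 23 such zeros in 10-20 yr libraries and 19 in 1-4 yr libraries. With only the joined positions listed in 2 or more OC libraries, 1752 genes could be tested and 2 were called higher in 10-20 yr (limma). One was RWDD1 (log2 difference 7.21, SE 0.96, limma adjusted p = 0.0302), which was not called over all positions. Its levels per library are not given here, so the call is not read as an age difference. The other was ENSMMUG00000028680, a mitochondrial gene (limma adjusted p = 0.0302). Over all its positions it had 640, 103, 298 and 165 TPM in 10F, 10M, 20F and 20M. It had 60.7 TPM in 1M and 0 in the other 1-4 yr libraries. The value in 1M lay at the annotated start, 10050, listed in 1 OC library only, so this setting drops it. The places kept, 9539 and 9613 to 9622, had tags in 10-20 yr libraries alone. The gene thus passed the filter through the older group alone, so that it had to differ. Both places lie before its annotated start, and nearby tags were listed under the mitochondrial genes ENSMMUG00000028681 and ENSMMUG00000028682. With only positions within 500 nt of the start, 1194 genes were tested and 0 were called (limma, 45 higher and 23 lower at an unadjusted p under 0.05).

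Among the 589 genes listed in all 8 libraries no zero could set a difference. Their median log2 difference was 0.06 and their median SE 1.16, against 0.56 and 1.88 in the 1736 genes with at least 1 zero. The groups did not overlap in 16 of the 589, 5 above and 11 below, and 0 of the 589 were called (limma). Over all 2325 genes, 49 (2.11%) lay above and 26 (1.12%) below, so the 16 are not read as an excess. TPM1, a tropomyosin, had 233, 132, 41.9 and 184 TPM in 10F, 10M, 20F and 20M, against 1.95, 19.8, 2.22 and 19.0 TPM in 1F, 1M, 4F and 4M (log2 difference 3.98, SE 1.20, limma adjusted p = 0.442). UQCRC1, a core subunit of respiratory complex III, had 521, 578, 393 and 395 TPM in 10-20 yr and 87.1, 285, 361 and 323 TPM in 1-4 yr. RBM8A, a core protein of the exon junction complex, had 95.4, 51.1, 71.8 and 62.7 TPM in 10-20 yr and 114, 145, 203 and 197 TPM in 1-4 yr. In UQCRC1 and RBM8A the groups stood close to each other, with log2 differences of 1.0 and -1.22. SNF8, of the ESCRT-II complex, had 240, 139, 198 and 162 TPM in 10-20 yr and 387, 268, 551 and 240 TPM in 1-4 yr, where 10F and 4M were almost equal. Those lower in all older libraries also included HAX1, TCEAL5, ZCCHC17 and ZSWIM9, with log2 differences of -1.0, -1.19, -2.0 and -1.43. All of these were chosen from the 16 after their values were seen.

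The libraries of a group were about as alike as libraries of different groups. Over the 589 genes, Pearson's r of log2(TPM + 1) across genes was 0.57 to 0.69 between 10-20 yr libraries (6 pairs), 0.50 to 0.65 between 1-4 yr libraries (6 pairs) and 0.52 to 0.65 between the groups (16 pairs). Genes are not independent replicates, and all pairs share the choice of genes listed in every library. The narrowest ranges were those of SNCB, beta-synuclein, with 8507, 10476, 9756 and 7295 TPM in 10-20 yr and 8373, 9395, 7176 and 10840 TPM in 1-4 yr, and of CLU, the chaperone clusterin, with 9151, 9352, 6086 and 8853 TPM in 10-20 yr and 5893, 7491, 7139 and 6651 TPM in 1-4 yr. SNCB differed by 0.01 and CLU by 0.28 on the log2 scale (95% interval for SNCB -2.10 to 2.13). A fold range over the 8 libraries under 3 was seen in 41 of the 589 genes, and one over 50 in 147 (25%).

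The cell type lists were counted as a check of the tissue and of its make-up, and fewer cells of a type and less RNA per cell cannot be told apart in bulk tissue. Neuronal and glial genes were listed in every library: SYP, of synaptic vesicles, had 1432 to 3281 TPM in 10-20 yr and 3013 to 4349 TPM in 1-4 yr, and MBP, of myelin, 2272 to 4103 TPM in 10-20 yr and 1218 to 3001 TPM in 1-4 yr. Many defining markers were listed in few libraries, such as SLC17A7 in 20M and 1F only, AQP4 in 4M only and PVALB in 10F, 20M and 4F. Blood markers were at 0 in all 8 libraries. The choroid plexus list was listed in 10F alone (70.6 TPM). Of the cerebellar list only 1 member was listed, PVALB, which is also on the GABAergic list. It had 18.9 and 22.4 TPM in 10F and 20M and 137 TPM in 4F, and is not read as cerebellar signal. The visual cortex list had 1 tested member, TESPA1, with 130, 223, 147 and 341 TPM in 10-20 yr and 1131, 421, 210 and 1075 TPM in 1-4 yr (log2 difference -1.55).

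Astrocyte markers were higher in 5 of 6 tested members and lower in 1, and the members given here are all among the higher ones. The median log2 difference of the 6 was 1.96 against 0.32 in all genes (1.45 without 1M to 2.30 without 1F). None of the 6 had an unadjusted p under 0.05 (limma). GFAP, the intermediate filament of astrocytes, had 173, 197, 26.2 and 186 TPM in 10F, 10M, 20F and 20M, against 8.13, 4.09, 70.3 and 27.2 TPM in 1F, 1M, 4F and 4M (2.72, SE 1.27, limma adjusted p = 0.790). Only 20F of the older libraries lay inside the younger range. GLUL, glutamine synthetase, had 32.9, 19.0, 24.1 and 82.5 TPM in 10-20 yr, against 6.18, 0, 69.4 and 0 TPM in 1-4 yr, and NDRG2 830, 966, 636 and 573 TPM, against 594, 31.7, 202 and 306 TPM. APOE, the main lipid carrier of the brain, had 329, 198, 46.5 and 237 TPM in 10-20 yr and 72.5, 28.3, 12 and 123 TPM in 1-4 yr. In GFAP and APOE, 20F was the lowest of the older libraries. The summed TPM of the whole list, most of it CLU, was 6819 to 11051 in 10-20 yr and 6962 to 7923 in 1-4 yr.

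Oligodendrocyte markers had a median of 1.20 over 4 tested members, with 3 higher, of 0.69 without 20M to 1.38 without 4F, and of 0.03 with the number of genes listed as a term in the fit. MBP had 2312, 2285, 4103 and 2272 TPM in 10-20 yr and 1305, 1218, 3001 and 2323 TPM in 1-4 yr, a log2 difference of 0.54 (SE 0.98) with the group ranges overlapping. QDPR had 0, 1.73, 78.7 and 146 TPM in 10-20 yr and 0, 0, 3.48 and 34.3 TPM in 1-4 yr, and MOBP stayed under 15 TPM in all libraries. The lower member was CRYAB. Its place with the most TPM, 241 to 251 nt before the start, held 39.6% of the gene's TPM. It had 3.7, 26.6, 141 and 75.1 TPM in 10-20 yr. The 1-4 yr libraries had 208, 0, 124 and 224 TPM there. At 215 nt inside, with 24.6% of the TPM, the values were 83.9, 108, 0 and 13.4 TPM in 10-20 yr. In 1-4 yr only 4F had tags at that place (292 TPM). A single place thus does not give the difference of the whole gene. Single members were tested for microglia, endothelial cells and oligodendrocyte precursors. C1QC, of complement component C1q, had 632, 16.9, 132 and 49.2 TPM in 10-20 yr and 75.4, 0, 4.76 and 126 TPM in 1-4 yr. SLC2A1, the glucose transporter of the blood-brain barrier, had 177, 310, 226 and 94.3 TPM in 10-20 yr and 0, 143, 148 and 8.88 TPM in 1-4 yr. BCAN, a proteoglycan of the matrix around neurons, had 0, 1.38, 56.2 and 210 TPM in 10-20 yr and 88.1, 116, 52.3 and 0 TPM in 1-4 yr. The other 5 listed microglial markers were each at 0 in 6 or more libraries.

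All 4 tested glutamatergic markers were lower in 10-20 yr (median -1.0, -1.62 without 1F to -0.36 without 20F), 1 of them with an unadjusted p under 0.05. This was GRIN1, the obligate subunit of NMDA receptors, with 0, 136, 0 and 55.0 TPM in 10F, 10M, 20F and 20M, against 153, 301, 226 and 64.9 TPM in 1F, 1M, 4F and 4M (-4.12, SE 1.79, limma adjusted p = 0.757). Its older zeros were both in females. Of 7 tested neurotransmitter receptors 5 were lower (median -0.98, -2.24 without 20M to -0.39 without 10M), and GABRA2, a subunit of GABA-A receptors, had 7.18 TPM in 20F and 0 in the other 10-20 yr libraries, against 14.0, 2.73, 97.6 and 29.1 TPM in 1-4 yr (limma unadjusted p = 0.0249). Of 4 tested GABAergic markers 3 were lower (median -0.60, and 0.63 over 2 genes with positions within 500 nt of the start). This median was -1.70 without 10M and 0.80 without 1M, and it was also above 0 without 10F or 20F. The summed TPM of all 13 listed GABAergic markers was 371, 489, 205 and 475 in 10-20 yr, against 708, 777, 698 and 517 in 1-4 yr. These sums did not overlap, a pattern given with no test, and 9 of the 13 genes were listed in fewer than 4 libraries. Sums were made for all 32 lists, and this was the only list without overlap, so the pattern was picked from many. SST, the neuropeptide of a class of these neurons, was the 1 tested member that was higher on the log2 scale. It had 344, 264, 163 and 197 TPM in 10-20 yr and 439, 432, 86.5 and 0 TPM in 1-4 yr, so that its sign rested on the 0 in 4M.

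Presynaptic genes had a median of 0.01 over 11 tested members (-0.39 without 4F to 0.28 without 20F, and -0.09 after quantile normalization), 6 higher and 5 lower, and 1 had an unadjusted p under 0.05, on the higher side. STX1A, a syntaxin of the presynaptic membrane, had 119, 232, 456 and 394 TPM in 10-20 yr and 671, 371, 608 and 513 TPM in 1-4 yr. Of 9 tested postsynaptic genes 6 were lower (median -0.13, -0.66 without 1M to 0.22 without 20F), among them CAMK2G, a calcium-dependent kinase, with 16.6, 85.3, 23.1 and 14.4 TPM in 10-20 yr and 126, 157, 235 and 64.9 TPM in 1-4 yr. Ion channels were higher in 6 and lower in 3 of 9 tested genes. Their median of 0.05 turned to -0.16 after quantile normalization, -0.60 without 20M and -0.99 without 1M, and was 0.61 without 1F. CACNB3, a subunit of voltage-gated calcium channels, was among the 3 lower ones. It had 86.9, 13.1, 4.68 and 62.4 TPM in 10-20 yr and 329, 180, 87.4 and 129 TPM in 1-4 yr. The groups did not overlap, although 10F and 4F were almost equal. Cytoskeletal and axon growth genes were split evenly, 8 higher and 8 lower of 16 (median -0.07, 0.03 when scaled to the listed TPM, and -0.27 without 1F to 0.54 without 4F), and GAP43, of growing axon endings, had 4849, 3262, 2371 and 3522 TPM in 10-20 yr and 3774, 3538, 4364 and 5583 TPM in 1-4 yr. The other neuronal lists had no member at an unadjusted p under 0.05, and the sign of each median turned with 1 library left out. Neuropeptides had a median of 0.31 over 8 genes (-0.37 without 20M to 0.77 without 10F), and immature neurons of 0.79 over 4 (-0.19 without 1M to 1.44 without 1F). Immediate-early genes had a median of -0.43 over 3 genes (-1.10 without 4F to 0.71 without 20F), and critical period plasticity of -0.47 over 3 (-1.10 without 20M to 0.98 without 10M).

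**Figure D4:**
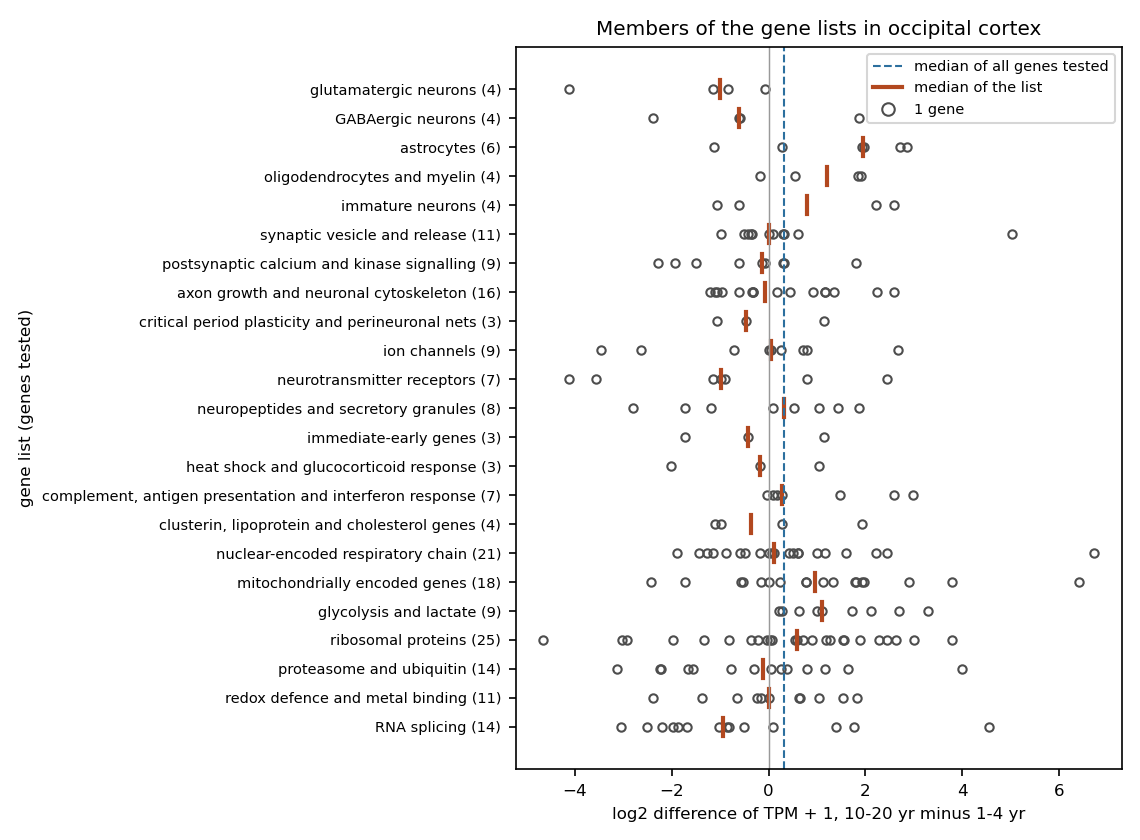
Log2 difference of TPM + 1 (10-20 yr minus 1-4 yr, horizontal axis) of each tested member (circles) of the gene lists with 3 or more tested genes. Thick marks are list medians and the dashed line the median of all 2325 genes, 0.32; the astrocyte median is 1.96 and the RNA splicing median -0.94.

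Of the lists of energy metabolism, the glycolytic and the mitochondrially encoded genes had medians above that of all genes, and the nuclear-encoded respiratory chain one below it. All 9 tested glycolytic genes had a positive difference, where 59.2% of all genes did. This count was 8 after quantile normalization, 6 with the number of genes listed as a term, and 6 to 9 when 1 library was left out. The median was 1.10, 0.22 with that term, and 0.42 without 1F to 2.01 without 4F, and none had an unadjusted p under 0.05. PGK1, phosphoglycerate kinase, had 14.1, 137, 127 and 200 TPM in 10-20 yr and 0, 151, 2.22 and 11 TPM in 1-4 yr (3.29, SE 1.67), with 1M inside the older range. GAPDH, which was listed everywhere, had 1098, 1924, 1230 and 1576 TPM in 10-20 yr and 1565, 736, 1114 and 1469 TPM in 1-4 yr. The nuclear-encoded respiratory chain had a median of 0.11 over 21 genes, 13 of them positive, which turned to -0.22 with 9 positive without 20M and was 0.26 without 4M. Its members with no overlap were NDUFB8 and UQCRC1, given above. Mitochondrially encoded genes, known here by identifier only, were positive in 13 of 18 (median 0.95, 0.67 without 4F to 1.46 without 1M), with 2 at an unadjusted p under 0.05. Their summed share of the listed TPM was 3.25, 2.96, 3.08 and 3.36% in 10F, 10M, 20F and 20M, against 4.25, 1.89, 2.09 and 1.23% in 1F, 1M, 4F and 4M. The older libraries lay within a narrow band inside the younger range (exact permutation p = 0.286), and the difference of 0.80 percentage points was 1.43 without 1F and 0.42 without 4M.

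Ribosomal protein genes had a median of 0.58 over 25 tested members (0.09 without 1F to 0.83 without 10M), 16 of them positive, and 1, RPL27, was lower at an unadjusted p under 0.05. RPS14, of the small subunit, had 6839, 0, 478 and 19.5 TPM in 10-20 yr and 4435, 470, 4724 and 2723 TPM in 1-4 yr. RPL4 had 4203, 4720, 5318 and 6939 TPM in 10-20 yr and 3046, 3268, 6468 and 10770 TPM in 1-4 yr, with a difference of 0.02. RNA splicing genes were lower in 10 of 14 tested members (median -0.94, -1.64 without 1M to -0.31 without 10F), none at an unadjusted p under 0.05. SON, a splicing cofactor of nuclear speckles, had 1165, 1296, 535 and 1035 TPM in 10-20 yr and 1497, 1862, 1454 and 849 TPM in 1-4 yr, while SNRPB, a core protein of spliceosomal particles, had 122, 706, 503 and 526 TPM in 10-20 yr and 168, 0, 0 and 446 TPM in 1-4 yr.

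Proteasome and ubiquitin genes were split 7 and 7 (median -0.13, -0.96 without 20F to 0.48 without 10F). SQSTM1, a receptor that brings ubiquitin-marked cargo to autophagy, had 126, 77.0, 144 and 89.8 TPM in 10-20 yr, against 0, 24.6, 8.88 and 7.05 TPM in 1-4 yr (log2 difference 3.99, SE 1.22, limma adjusted p = 0.456). Every older library was at least 3 times the highest younger one. PSMC3, of the proteasome base, had 121, 360, 45.6 and 30.4 TPM in 10-20 yr and 433, 297, 510 and 486 TPM in 1-4 yr. Redox genes had a median of 0.01 over 11 members (-0.50 without 4M to 0.44 without 4F). Complement, antigen presentation and interferon genes had one of 0.28 over 7 (0.22 without 10M to 1.33 without 10F), with SERPING1, the C1 inhibitor, at 103, 471, 175 and 256 TPM in 10-20 yr and 104, 0, 29.5 and 177 TPM in 1-4 yr. The clusterin and lipoprotein list had a median of -0.35 over 4 genes (-0.76 without 1M, 0.12 without 20M and 0.17 without 4F). Heat shock genes had one of -0.17 over 3 (-1.10 without 1M to 0.45 without 4F), and the circadian list of -0.46 over 2 (-1.76 without 4F to 0.76 without 1M). Growth arrest and senescence genes had no tested member, and their summed TPM was 290, 190, 0 and 201 in 10-20 yr and 20.8, 81.8, 40.2 and 0 in 1-4 yr.

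Whether the age difference itself differed between the sexes was tested with an interaction term, on 2 libraries per age group and sex. No gene passed (limma, 0 of 2325, 0.0%), with 71 genes (3.05%) at an unadjusted p under 0.05 where the signed age difference of males minus that of females was positive and 53 (2.28%) where it was negative. The 3 genes with the smallest p were NTAN1, RPS7 and UTP14A. NTAN1, an amidase acting on protein N termini, had 87.8 and 108 TPM in 10M and 20M and 0 in 1M and 4M, against 0 in 10F and 20F and 14.6 and 55.4 TPM in 1F and 4F (interaction 11.52 on the log2 scale, limma adjusted p = 0.716). UTP14A, of ribosome assembly, had 124 and 179 TPM in 10M and 20M and 0 in 1M and 4M, against 0 in 10F and 20F and 4.88 and 32.6 TPM in 1F and 4F. RPS7 had 16.2 and 20.1 TPM in 10M and 20M and 1.02 and 0 TPM in 1M and 4M, against 0 in 10F and 20F and 231 and 117 TPM in 1F and 4F. All 3 thus turned on libraries listed at 0.

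OC was set against the PFC, PCC, TC and PC libraries of the same ages and sexes, which the study's methods take from the same animals. These 4 regions listed fewer genes in older libraries, with region means over the 4 of 1856 ± 592 in 10-20 yr and 2886 ± 507 in 1-4 yr (SD, n = 4 each), the opposite order to OC. OC minus that mean was 865, 37, 1302 and 2100 genes in 10F, 10M, 20F and 20M, against -795, -1224, -577 and 654 genes in 1F, 1M, 4F and 4M. The means differed by 1561 genes (exact permutation test, two-sided, p = 0.0571), and only 4M overlapped the older libraries. Per gene, OC minus the other regions gave 0 called genes of 2325 (limma, 0.0%), 212 (9.12%) positive and 19 (0.817%) negative at an unadjusted p under 0.05, with a median of 1.27. The age difference in the 4 regions themselves had a median of -0.91, with 17 genes (0.731%) higher and 348 (15%) lower at an unadjusted p under 0.05. There 1 gene was called (0.043%), NR4A1, an immediate-early transcription factor, at -5.28 (SE 0.73, limma adjusted p = 0.0142), and it differed by -1.73 (SE 2.15) in OC. The number of genes listed moves with these per-gene values, and its part in them was not tested.

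The genes with the smallest p in that comparison were CDK16, SEC62 and MAGED1. All 3 had passed the filter through the older OC libraries alone, and the filter was not applied to the other regions. This choice favours a positive difference in OC, so the contrasts below are description only. CDK16 differed by 6.18 in OC and by -1.80 (SE 0.79) in the other regions, SEC62 by 7.25 and -2.17 (SE 1.32), and MAGED1, an adapter protein of the MAGE family, by 4.47 and -3.29 (SE 1.01) on the log2 scale, each with a limma adjusted p of 0.198 for the difference between OC and the rest. MAGED1 had 29.9, 14.5, 85.0 and 4.80 TPM in the older OC libraries and was listed at 0 in 1F, 1M, 4F and 4M. TALDO1 differed by -0.14 (SE 1.16) and CLIC1 by 0.09 (SE 0.96) in the other regions. Among the 10 higher genes NDUFB8 had the largest positive value there, 2.68 (SE 1.23), and among the 10 lower ones KXD1 the most negative, -3.42 (SE 0.85). No gene can be called particular to OC from this test.

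**Figure D5:**
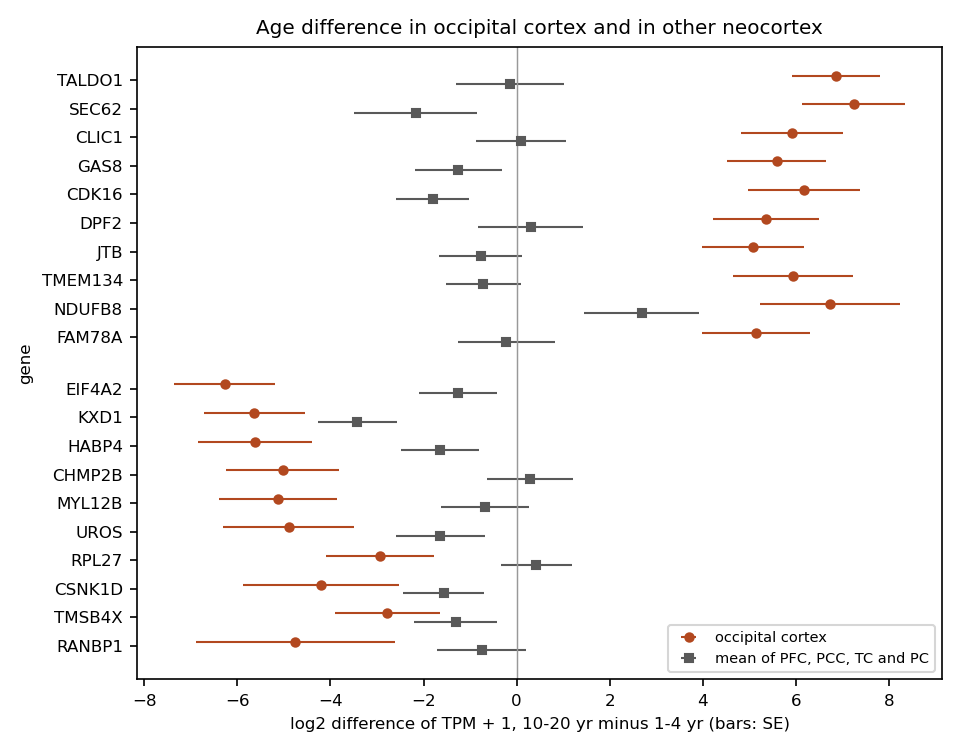
Log2 difference of TPM + 1 between 10-20 yr and 1-4 yr for the 20 named genes, in OC (circles) and in the mean of PFC, PCC, TC and PC (squares), with bars of 1 SE. NDUFB8 is at 2.68 and KXD1 at -3.42 in the other regions, on the same side as in OC, while CDK16 lies at 6.18 in OC and -1.80 in the others.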

How the data were processed

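CAGE-seq was deposited as 1 table of start positions by 64 libraries, in TPM, which is RPM: the authors scaled the tags of each position to the tags of its library, with no length correction. Per the methods, the authors aligned filtered reads with TopHat2 to MMUL 1.0, kept unique hits, took read 5′ ends, joined sites under 20 nt apart in each library and assigned them to genes. Low values were whole multiples of 1 tag, in every value under 50 TPM (tolerance 0.1 tag), which gave 2705000 to 3265000 tags per OC library and a smallest listed value of 3 or 4 tags, so differences of a few TPM are not seen.

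TPM were summed per gene. For genes with at least 1 TPM in 4 of 8 OC libraries, limma 3.58.1 (R 4.3.3) was run on log2(TPM + 1), two-sided, and a gene was called where its Benjamini-Hochberg value over all genes fell below 0.05. A pseudocount of 1 TPM understates differences of low genes. Library measures had exact permutation tests (SciPy 1.17.1). Symbols came from a name table, and list members were matched by symbol, or by chromosome for mitochondrial genes. Named genes are the 10 largest called differences in each direction, filled by the smallest p among genes with a symbol and no overlap, up to 3 tested members per list by p, and the 3 of smallest p for the sex and region comparisons. One gene of this rule is not reported here. Genes named outside it are levels, ranges or examples chosen after their values were seen. The 32 lists and the members were chosen with earlier results of these data known. The fits were tested on simulated data. No column was left without a sample. Alternatives were other pseudocounts, filters and scalings, a sex term, a moderated prior with trend, positions near the start, the highest position, a slope on age and leaving out each library. After seeing the data, shared positions, voom on tags, the number of genes listed as a term, list medians without each library and, for the count of genes listed alone, OC minus other neocortex were added.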

Additional observations from a re-analysis of the deposited data

Results flagged for a closer look

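For 1 library far from the other 3 of its group, 194 groups of values were examined, the library measures and the log2(TPM + 1) of the named genes, and 25 (12.9%) stood out, where chance gives about 1 in 20. In 10 of them the other 3 libraries were all at 0, so that any listed value stands apart. These were SEC62 (4.12 TPM in 4F), CDK16 (10.23 TPM in 1M), TMEM134 (5.83 TPM in 4M), NDUFB8 (44.71 TPM in 4M), HNRNPA1 (2.45 TPM in 4M) and ENSMMUG00000028680 (60.7 TPM in 1M) among the 1-4 yr libraries, and HABP4 (10.87 TPM in 20M), GRIA2 (69.06 TPM in 20M), HNRNPC (95.29 TPM in 20M) and GABRA2 (7.18 TPM in 20F) among the 10-20 yr libraries.

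In 9 groups 1 library was at 0 and the other 3 were not. These were TUBB2B (0 TPM in 10F) and GPI (0 TPM in 10M) in 10-20 yr, and BCAN and ENSMMUG00000028703 (0 TPM in 4M), RTN4 (0 TPM in 4F), NR4A1, DNAJA1 and HNRNPC (0 TPM in 1F) and PRDX3 (0 TPM in 1M) in 1-4 yr.

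The other 6 were all in 10-20 yr. CDK16 was at 56.55 TPM in 10F, below 157 to 190 TPM in the others. SYP was at 1431.89 TPM and CHGB at 3.33 TPM in 10F, below 2884 and 336 TPM or more. CACNG3 was at 321.33 TPM in 10M, above 32.8 to 38.7 TPM. Library 20F was low in GFAP, at 26.23 TPM against 173 to 197 TPM, and high in MBP, at 4103.35 TPM against 2272 to 2312 TPM. No library measure was among the 25.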

How the results depend on the processing

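The count of genes with an adjusted p under 0.05 was 0 in the limma fit and stayed at 0 in most alternatives, leave-one-out fits of each OC library included. It was 1 with a pseudocount of 0.25 TPM (TALDO1), 1 with no filter (TALDO1, of 6866 genes), 2 with only joined positions listed in 2 or more OC libraries, and 4 with limma voom on recovered tags, the last pair chosen after seeing the data. The cause was not tested. In the fits of the OC age difference with 0 calls, the smallest limma adjusted p ran from 0.0531 to 0.854. The lowest came with quantile normalization and the highest with at least 5 TPM in 6 libraries. This value was 0.789 with the trended prior, 0.371 for the slope on age and 0.295 with the number of genes listed as a term. For OC against other neocortex the count was 0 to 1 when the libraries of 1 age and sex were left out in turn, with the 1 call (ENSMMUG00000005374, adjusted p = 0.0359) coming without the 4-yr-old males. The sex interaction gave 0 with a pseudocount of 0.25 TPM and with quantile normalization. The median difference of all genes was 0.32, 0.41 scaled to the listed TPM, 0.07 with quantile normalization, 0.12 for genes of at least 5 TPM in 6 libraries, 0.00 with the number of genes listed as a term, and 0.19 to 0.48 when a library was left out. The differences in library measures kept their direction and did not pass the threshold in any alternative. With a library left out the exact test cannot give a p under 0.05, so those alternatives could not pass. For the 10 higher and 10 lower genes, 390 alternative values gave 1 change of sign (TMSB4X, with shared positions only) and 6 passed the threshold. For the 71 other named genes, 1406 values gave 36 changes of sign, in 21 genes, and 1 passed.

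No paired analysis was possible because the groups come from different animals and the replicate numbers only follow the order of the records. The median SE of a single gene was 1.76 on the log2 scale. Of 24 lists with 2 or more tested genes, 15 had a median that changed sign when 1 library was left out. Values under 3 or 4 tags are not seen. A zero does not show absence, since 69.5% of genes that reached 100 TPM in 1 OC library were listed at 0 in another. Age, animal and library cannot be told apart, because each age and sex has 1 library, and the number of animals in a CAGE-seq library is not stated.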

Other observations

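Some of the highest genes of OC had very different levels in different libraries. ENSMMUG00000008245 had 196, 14984, 145 and 183 TPM in 10F, 10M, 20F and 20M, against 410, 19925, 17416 and 14801 TPM in 1F, 1M, 4F and 4M. ENSMMUG00000008277 had 7610, 9252, 12.5 and 14.7 TPM in 10-20 yr and 4579, 4313, 8156 and 6776 TPM in 1-4 yr, so that its low values were those of 20 yr. RTF1, of an elongation complex of RNA polymerase II, was listed at 0 in 20F and had 6214, 4057 and 3614 TPM in 10F, 10M and 20M, against 1993 to 9017 TPM in 1-4 yr. Of the 25 genes with the highest mean TPM, 11 kept a range under 3-fold over the 8 libraries, 3 ranged over 50-fold, and 3 were listed at 0 in at least 1 library. HYPK, with the highest mean, had 35783, 24193, 27784 and 30571 TPM in 10-20 yr and 30446, 42715, 41297 and 20866 TPM in 1-4 yr. These genes were chosen after their values were seen.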
